A study of Mus musculus with 28 samples.

Results

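The 39 genes described here are 30 genes of the cell cycle and 9 genes of retinal progenitors, taken by name from a written list out of 23995 genes in the tables. The list was set by function and not by any measured value, though earlier results of these data were known when it was chosen. It holds 5 G1 cyclins and kinases, 11 S phase genes, 14 genes of G2 and mitosis and 9 progenitor genes. All 39 have an entry in every library.

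The mice carried the RiboTag allele, in which Cre recombination switches ribosomal protein L22 to an HA-tagged form, and were bred with Pax6-alpha-Cre mice on C57BL/6. Pax6-alpha-Cre is active for a short time in progenitors of the peripheral retina, so that the tag marks their descendants of every class and not ganglion cells alone. Ribosome-bound mRNA was pulled down with an HA antibody (axon-TRAP) at E17.5, P0.5, P7.5 and in the adult, from Cre-positive retina, from Cre-positive superior colliculus (SC), where retinal axons end, and from SC of Cre-negative littermates, which carry the allele without recombination and measure the background of the pulldown. Each of these 12 groups had 2 libraries, and each library pooled several eyes or colliculi. The study calls these samples retina and states that eyes were homogenized, and lens genes were measured in them. Adult Cre-positive tissue gave 4 further libraries, a single one each for retina and SC, with ribosome run-off and without it.

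Cells enter the division cycle when D-type cyclins with their kinases release E2F factors, which switch on the genes that copy DNA. A later wave of genes builds the mitotic spindle and divides the chromosomes. Their promoters often hold a CHR element, through which they are held down in resting cells, and CCAAT boxes, which bind the activator NF-Y. Retinal progenitors express Pax6, Rax, Lhx2 and Sox2 while they divide, keep Notch targets such as Hes1 and Hes5 on, and give rise to ganglion cells first, through Atoh7, and to most rods and bipolar cells around and after birth. Division in the mouse retina ends in the days after birth, first in the centre and last in the periphery.

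The libraries were uneven, and this touches every result. Genes above 0 FPKM (fragment counts scaled by transcript length and by library size, so that genes can be compared with each other) numbered between 6262 and 8769 in the 4 libraries of E17.5 and P0.5 retina, called perinatal from here on. They numbered 8119 and 8079 in replicate 2 of P7.5 and adult retina, the later stages, but 4311 and 2082 in replicate 1. Depth, estimated roughly from the spacing of low FPKM values, was 6590000 to 10100000 fragments in the 8 retina libraries and did not separate the libraries with few genes. Genes that every cell uses were also listed at 0: Actb was at 0 in 3 retina libraries (E17.5 replicate 1, P0.5 replicate 2 and P7.5 replicate 1), and Gapdh was at or near 0 in all 24. A gene at 0 is therefore called listed at 0, not absent. Photoreceptor markers summed to between 2.54 and 49.0 FPKM in perinatal and between 707 and 2534 FPKM in later retina, which follows the labelled stages, and lens markers summed to between 214 and 1305 FPKM over all 8.

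In retina, most of the S phase and mitosis genes of the list stood apart by age in every library, and no G1 gene of the list did. All 4 perinatal libraries were above all 4 later ones in 18 of the 38 genes that were above 0 in a retina library (47.4%), where 4.55% of all 12235 such genes did so. The reverse order held for 0 of the 38, against 0.703% of all genes. By role the count was 8 of 11 S phase genes, 8 of 13 genes of G2 and mitosis, 2 of 9 progenitor genes and 0 of 5 G1 genes. In 15 of the 38 every later library was listed at 0 (39.5%), against 23.7% of all genes. Bub1, a kinase of the spindle checkpoint, was listed at 0 in all 8. In bulk tissue, fewer dividing cells and less mRNA on the ribosomes of each cell cannot be told apart.

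**Figure D1:**
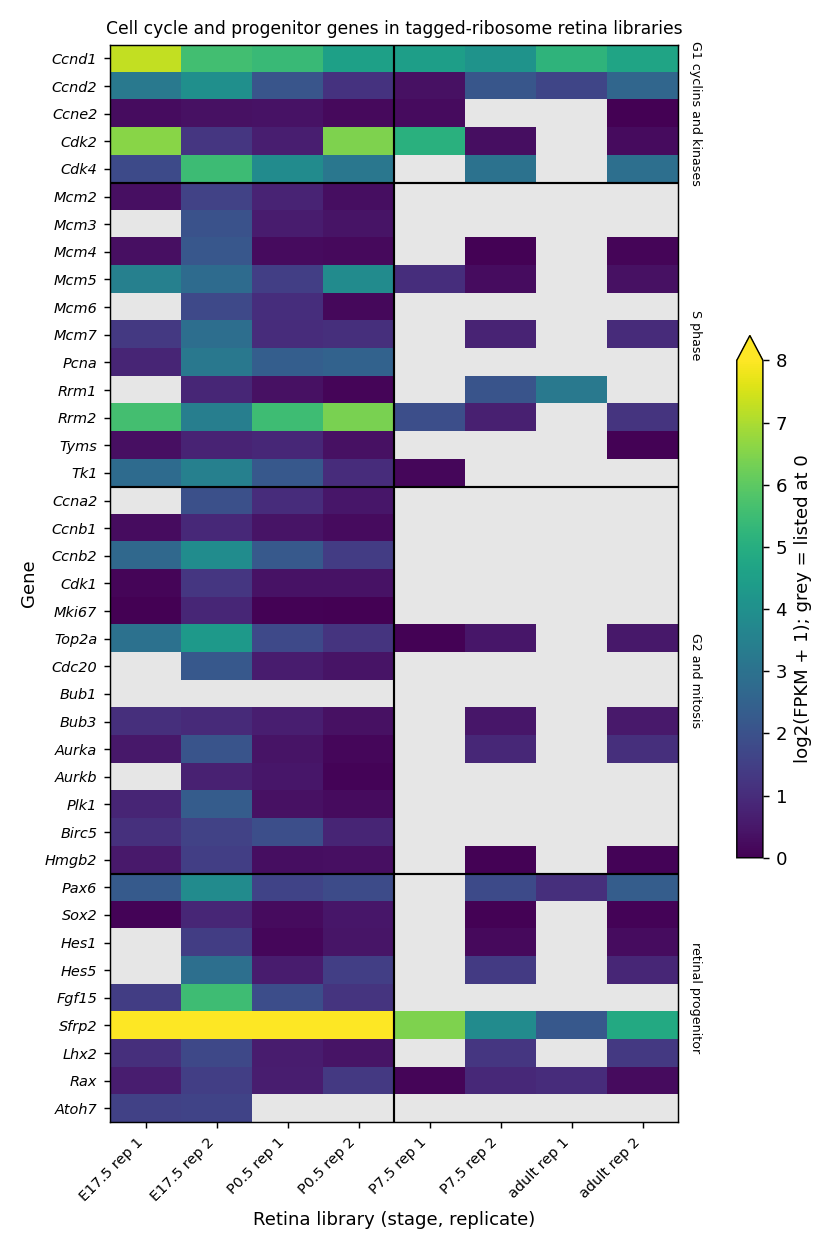
Level of the 39 genes, as log2(FPKM + 1) by colour, in the 8 retina libraries, ordered by stage and replicate; grey marks a gene listed at 0, and the vertical line parts perinatal from later libraries. The S phase and mitosis blocks are mostly filled to the left of the line, least so in E17.5 replicate 1, and mostly grey to its right. Ccnd1 is coloured in all 8 libraries.

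Replicates differed widely within a stage. The highest of the 8 retina libraries was E17.5 replicate 2 for 28 of the 38 genes, and it was so for 39.7% of all genes. With P7.5 and adult replicate 1 both left out, the 4 perinatal libraries were above the 2 remaining later ones in 20 of the 38 (52.6%), against 5.97% of all genes. By role these were 8 of 11 S phase genes, 8 of 13 of G2 and mitosis, 2 of 9 progenitor and 2 of 5 G1 genes. These 2 later libraries had as many genes above 0 as P0.5 retina, at 33.8% and 33.7% of all genes against 33.9% and 35.2%, yet they held 51.3% and 53.9% of the 39 genes where both P0.5 libraries held 94.9%. Within the 3 libraries with Actb at 0 and, separately, within the other 5, the perinatal libraries were above the later ones in 23 of the 38 genes (60.5%), against 7.53% of all genes. Among the 23 were the G1 genes Ccnd1, Cdk2 and Cdk4, which overlapped by age over all 8 libraries but not within these subsets. Scaling each library by its median ratio gave 17 of the 38 (44.7%), against 6.11% of all genes, and leaving out E17.5 replicate 1 gave 25 (65.8%), against 9.21%.

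**Figure D2:**
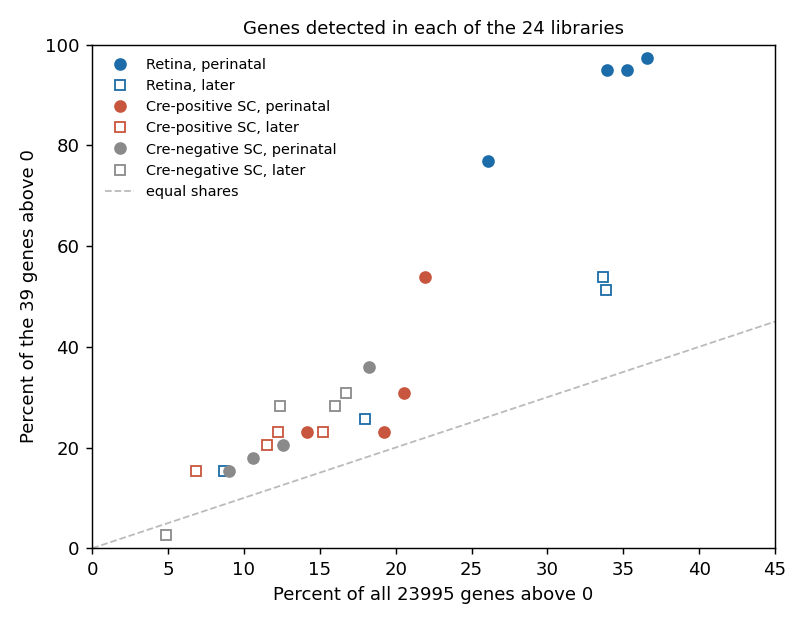
Percent of the 39 genes above 0 against percent of all genes above 0, a point for each of the 24 libraries, with perinatal libraries filled and later ones open. The 4 perinatal retina libraries lie at 76.9% to 97.4% of the 39 genes, and no other library is above 53.9%.

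Of the S phase genes, Rrm2, the small subunit of ribonucleotide reductase, which makes the building blocks of DNA, reached the highest level. In retina its FPKM was 48.0 and 9.72 at E17.5, 44.3 and 83.7 at P0.5, 2.80 and 0.624 at P7.5, and 0 and 1.32 in the adult. The lowest perinatal value was above the highest later one, and E17.5 and P0.5 overlapped. Pcna, the sliding clamp of DNA polymerase, read 0.768 and 8.27 at E17.5 and 4.26 and 4.66 at P0.5, and was listed at 0 in all 4 later libraries. Tk1, which salvages thymidine, read 5.93 and 10.3 at E17.5 and 3.62 and 1.01 at P0.5, with 0.109 in 1 P7.5 library and 0 in the other 3 later ones. Its 2 E17.5 libraries were above both P0.5 libraries, an order whose share over all genes was not counted. Tyms, which makes thymidylate, was between 0.258 and 0.851 in perinatal retina and at most 0.0345 later.

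The MCM genes encode the 6 subunits of the helicase that opens DNA for copying. Mcm5 read 10.2 and 5.89 at E17.5 and 1.77 and 13.6 at P0.5, against 1.06, 0.207, 0 and 0.270 in the later libraries. Mcm7 was between 1.01 and 6.34 in perinatal and at most 0.963 in later retina, and Mcm4 at least 0.161 against at most 0.0733. Mcm2 was between 0.229 and 1.96 in perinatal retina and listed at 0 in all later libraries. Mcm3 and Mcm6 were also listed at 0 in all later libraries, but they were at 0 in E17.5 replicate 1 too. So 4 of the 6 subunits parted by age in every library, and the other 2 did so in all but that one. Rrm1, the large subunit of ribonucleotide reductase, went another way: it was at most 0.805 in perinatal retina and read 3.21 in 1 P7.5 and 8.33 in 1 adult library, with 0 in their partners.

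Of the genes of G2 and mitosis, Ccnb2 (cyclin B2) read 5.56 and 14.0 at E17.5 and 3.69 and 1.66 at P0.5, and was listed at 0 in all 4 later libraries. Top2a, the topoisomerase that untangles sister chromosomes, read 6.83 and 18.8 at E17.5, 2.42 and 1.31 at P0.5, 0.0254 and 0.400 at P7.5, and 0 and 0.421 in the adult. In both genes each E17.5 library was above each P0.5 library, as also in Aurka, Plk1, Bub3 and Hmgb2. The share of all genes in this order was not counted, and E17.5 replicate 2 was the highest retina library for 39.7% of all genes. A fall from E17.5 to P0.5 particular to these genes is therefore not read from it. Birc5, or survivin, a part of the chromosomal passenger complex, was between 0.788 and 2.82 in perinatal retina and at 0 later. The kinase Cdk1, its partner Ccnb1, the mitotic kinase Plk1 and the proliferation marker Mki67 were also above 0 in every perinatal and in no later retina library, at low levels. The highest values were 1.39, 0.874, 4.07 and 0.819, all in E17.5 replicate 2, and the lowest perinatal ones 0.0774, 0.170, 0.180 and 0.0105. In perinatal retina 3 fragments on a transcript of 2 kb amount to 0.148 to 0.228 FPKM. The lowest values are near or below this level, so the order of these genes rests on few fragments there. Hmgb2, a chromatin protein of dividing cells, was between 0.223 and 1.79 in perinatal and at most 0.0499 in later retina.

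The other mitotic genes did not part in every library. Ccna2 (cyclin A2), Cdc20, which opens the way to anaphase, and the kinase Aurkb were listed at 0 in all later libraries and also in E17.5 replicate 1. Aurka, a kinase of the spindle poles, read up to 3.20 in perinatal retina but also 0.839 and 1.10 in replicate 2 of P7.5 and the adult. Bub3, a checkpoint protein, read 1.11 and 0.938 at E17.5, 0.596 and 0.291 at P0.5, and 0.410 and 0.470 in the same 2 later libraries.

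The promoters of 30 of the 39 genes are in the RefSeq table used here (GRCm38.p6), as the 250 bases before the transcript start. The E2F motif was searched as TTTCCCGC, TTTGGCGC, TTTCGCGC and TTTGCCGC, the CHR as TTTGAA, and the CCAAT box as CCAAT, each on both strands. An E2F motif lay in 3 of 10 S phase promoters, against 1.91% of 27025 promoters, and in 1 of 12 promoters of G2 and mitosis. A CHR lay in 7 of those 12 (58.3%), against 16.3% of all, and in 1 of 10 S phase promoters. All 7 also held a CCAAT box, where 5.73% of all promoters held both. Of 6 progenitor promoters, 0 held an E2F motif or a CHR. CCAAT overlaps neither of the other motifs in its letters, and by itself it lay in 34.5% of all promoters and 24 of the 30. These 4 stretches are shown as examples, 1 with E2F motifs and 3 with a CHR and CCAAT boxes, from genes that parted by age in retina. Mcm7 (E2F), Mki67 and Mcm2 (CHR) and Cdk1 (both) also parted and hold these motifs. Pcna, Rrm2, Tyms, Tk1, Ccnb1, Plk1, Birc5 and Sfrp2 parted and hold neither an E2F motif nor a CHR. Mcm6 and Cdk2 (E2F) and Cdc20 and Bub3 (CHR) hold a motif and did not part. Of the 16 promoters of genes that parted, 3 held an E2F motif and 6 a CHR, beside 5 and 8 of the 30. Capitals mark matches on either strand: in Mcm5 (chr8:75109259-75109508, plus strand) a pair of overlapping E2F motifs and CCAAT boxes, in Ccnb2 (chr9:70421555-70421804, minus strand), Top2a (chr11:99024190-99024439, minus strand) and Hmgb2 (chr8:57511593-57511842, plus strand) CHR and CCAAT. A match is a run of letters, and the data do not measure binding.
Mcm5: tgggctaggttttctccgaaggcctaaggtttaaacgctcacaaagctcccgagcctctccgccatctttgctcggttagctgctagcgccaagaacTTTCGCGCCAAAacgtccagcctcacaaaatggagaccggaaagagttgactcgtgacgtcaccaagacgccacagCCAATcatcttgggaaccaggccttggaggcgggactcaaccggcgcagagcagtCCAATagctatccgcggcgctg
Ccnb2: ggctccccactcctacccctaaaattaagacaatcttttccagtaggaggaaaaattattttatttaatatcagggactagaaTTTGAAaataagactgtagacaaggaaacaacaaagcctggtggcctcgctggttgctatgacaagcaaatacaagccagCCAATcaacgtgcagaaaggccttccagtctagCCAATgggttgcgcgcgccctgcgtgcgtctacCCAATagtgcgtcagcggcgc
Top2a: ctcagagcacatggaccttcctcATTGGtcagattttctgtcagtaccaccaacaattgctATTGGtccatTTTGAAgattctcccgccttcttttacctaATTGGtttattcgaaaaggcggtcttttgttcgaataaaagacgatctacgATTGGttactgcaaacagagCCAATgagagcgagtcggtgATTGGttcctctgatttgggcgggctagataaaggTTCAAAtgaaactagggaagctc
Hmgb2: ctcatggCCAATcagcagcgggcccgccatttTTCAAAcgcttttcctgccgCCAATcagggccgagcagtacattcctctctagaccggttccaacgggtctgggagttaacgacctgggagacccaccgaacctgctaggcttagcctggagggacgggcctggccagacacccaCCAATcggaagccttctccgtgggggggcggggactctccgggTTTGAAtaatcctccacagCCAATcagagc

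Among the progenitor genes, Sfrp2, a secreted inhibitor of Wnt signals, had by far the highest level. It read 2575 and 257 FPKM at E17.5, 554 and 794 at P0.5, 86.8 and 13.5 at P7.5, and 3.61 and 28.2 in the adult, so that each perinatal library was above each later one. Fgf15, a growth factor of progenitors, read 1.72 and 45.2 at E17.5 and 2.75 and 1.28 at P0.5, and was listed at 0 in all 4 later libraries. Atoh7, the factor that starts ganglion cell fate, was found at E17.5 alone, at 1.92 and 2.08, and listed at 0 in the 6 other retina libraries. The other 6 progenitor genes overlapped between ages. Pax6, the eye field factor that amacrine and ganglion cells keep, read 3.85 and 13.5 at E17.5, 2.06 and 2.56 at P0.5, 0 and 2.497 at P7.5, and 1.11 and 4.16 in the adult. Rax and Lhx2, which with Pax6 set up the retina, were at 0.904 and 1.40 in P7.5 replicate 2, within their perinatal ranges of 0.557 to 1.77 and 0.354 to 2.30. Sox2, which keeps progenitors and later Müller glia, and the Notch targets Hes1 and Hes5 were highest in E17.5 replicate 2 (0.820, 1.73 and 6.55). In E17.5 replicate 1, Hes1 and Hes5 were listed at 0 and Sox2 read 0.0456.

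Each G1 gene was above 0 in at least 1 retina library of every stage. In the adult, however, Ccne2 and Cdk2 reached only 4.486e-05 and 0.179 FPKM. Ccnd1 (cyclin D1), the main D-type cyclin of the retina, read 154 and 47.0 at E17.5, 41.7 and 22.4 at P0.5, 21.6 and 16.2 at P7.5, and 36.02 and 24.7 in the adult. The adult values lay within the range of P0.5. Ccnd2 (cyclin D2) lay between 1.25 and 14.9 in perinatal and between 0.274 and 5.19 in later retina. Cdk4, the kinase of these cyclins, read 2.49 to 43.8 in perinatal retina and 7.10 and 6.54 in replicate 2 of P7.5 and the adult, with 0 in replicate 1 of both. Ccne2 (cyclin E2) was at most 0.322 everywhere. Cdk2, the kinase of cyclin E, read 94.1, 86.1 and 32.6 in the 3 retina libraries with Actb listed at 0 and at most 1.41 in the other 5. Cdk2 lies at chr10:128697939-128705031 and overlaps Pmel by 837 bases on the other strand. The sources used here do not say that strand was kept, so its level is uncertain, as are those of 8 other genes of the list that overlap a protein-coding gene on the other strand (Ccnd1, Ccne2, Cdk4, Mcm7, Tk1, Ccna2, Cdc20 and Bub3). Pmel itself was between 0 and 5.61 FPKM in retina.

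**Figure D3:**
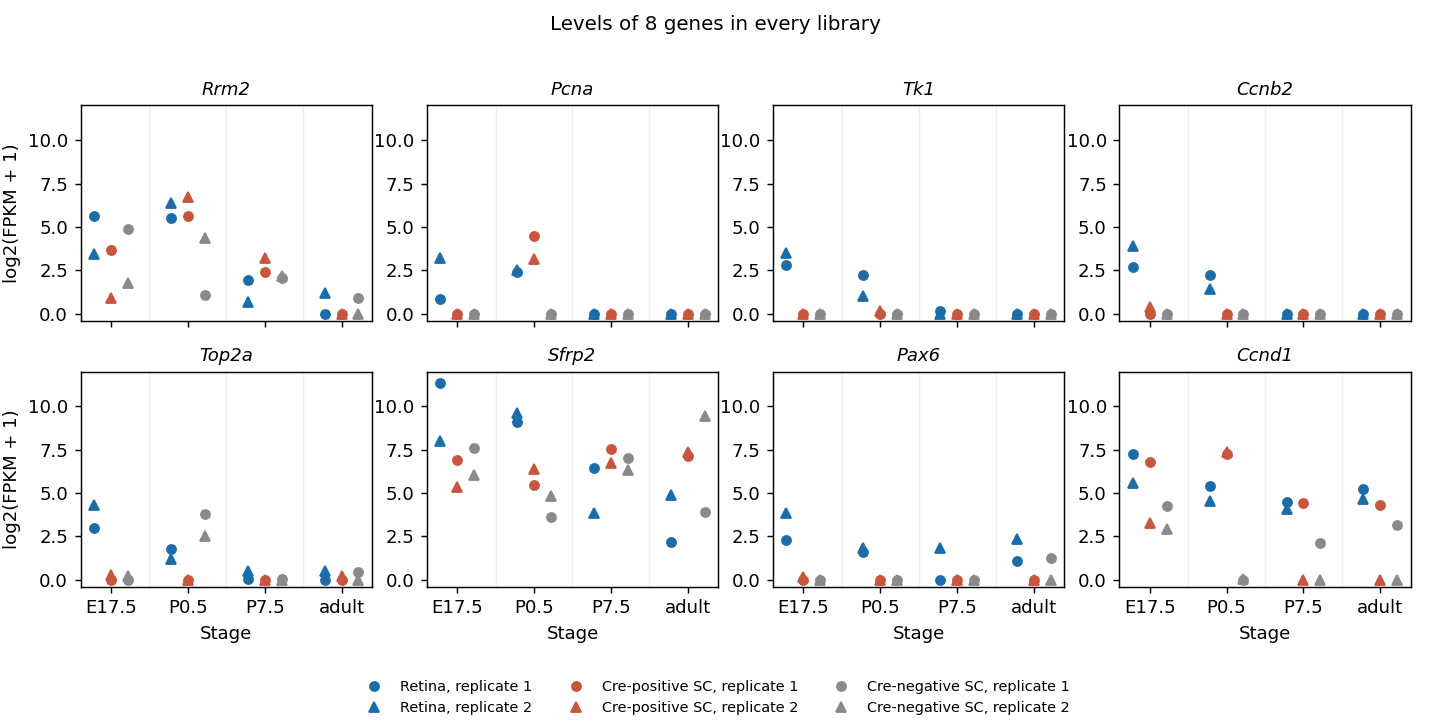
Level of 8 genes in all 24 libraries, as log2(FPKM + 1), by stage, with retina in blue, Cre-positive SC in red and Cre-negative SC in grey; circles are replicate 1 and triangles replicate 2. Tk1 and Ccnb2 are at most 0.109 and 0.284 FPKM outside perinatal retina, Sfrp2 is present in every library, and Pcna and Ccnd1 are also high in Cre-positive SC at P0.5.

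The order in every library was then set beside a test across all genes: limma on log2(FPKM + 1), with adjusted p-values over all 4083 genes that reached 1 FPKM in at least 2 retina libraries. This filter passed 23 of the 39 genes. Of these, 10 reached 1 FPKM in perinatal libraries alone and are bound to look higher there, so the counts and the median over the 23 are descriptions. Perinatal exceeded later retina in 1 of the 23, Sfrp2 (log2 difference 5.18, SE 0.95, limma adjusted p = 4.16e-05), against 0.735% of all genes tested. The call was lost with no filter (limma adjusted p = 0.591), with median-ratio scaling (0.0681), with P7.5 and adult replicate 1 both left out (0.0878) and without the libraries with Actb at 0 (0.293), at log2 differences of 4.87 to 5.33. Rrm2 came next, with a log2 difference of 4.28 (SE 1.29, limma adjusted p = 0.0794). The differences were above 0 in 22 of the 23 genes, with a median of 1.13 on the log2 scale beside a median of -0.06 over all genes tested, or 0.17 over all genes with median-ratio scaling. An unadjusted p under 0.05 was reached by 9 of the 23 in this direction and by 0 in the other, and by 183 and 197 of all 4083 genes. Perinatal was below later retina in 0 of the 23, against 0.22% of all genes.

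The step from P0.5 to P7.5 taken alone, with 2 libraries on each side, gave 0 of the 23 genes lower at P7.5 by limma, against 0.0245% of all genes, and 2 at an unadjusted p under 0.05. These 2 were Sfrp2, with a log2 difference of -4.22 (SE 1.34), and Rrm2, with -4.64 (SE 1.83). Median-ratio scaling moved the median of all genes in this step from 0.32 to -0.06 on the log2 scale.

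Other genes of the same pathways, from written lists, showed the same order in part. The perinatal libraries were all above the later ones in 10 of 32 other S phase genes (31.2%), 13 of 40 other genes of G2 and mitosis (32.5%), 6 of 36 other progenitor genes (16.7%) and 2 of 21 genes of cycle control, that is E2F, Rb and cycle inhibitors (9.52%), beside 4.55% of all genes. By limma, 1 of 14 other S phase genes tested was higher in perinatal retina. It was Uhrf1, which carries DNA methylation through S phase, at 148 to 216 FPKM in perinatal and 0.147 to 3.19 in later retina (log2 difference 6.05, SE 1.21, limma adjusted p = 0.00027). The next in order of p were Cdt1, which licenses replication origins, and the replication genes Gins1 and Mcm10. None of the 11 other genes of G2 and mitosis or the 8 of cycle control passed. Those nearest were Cdca3 (11.6 to 66.8 FPKM against 0 to 1.62), Cdc25c, Spc25 and Cenpa in the first and Btg2, Gadd45g, Cdkn2d and Btg1 in the second, where 4 and 0 had an unadjusted p under 0.05. Of 22 other progenitor genes tested, 2 were higher: Sox11, a factor of newborn neurons (log2 difference 6.47, SE 0.90, limma adjusted p = 9.13e-09), and Meis1 (4.00, SE 0.98, adjusted p = 0.00975).

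Markers of other cells moved with age as well. By the same test 2 of 8 ganglion cell markers (Ebf1 and Pou4f1) and 1 of 5 amacrine and horizontal markers (Tfap2b) were higher in perinatal retina, and 4 of 13 photoreceptor markers, Pde6g, Gnat1 and Sag among them, were lower. No marker passed among 4 of bipolar cells, 8 of Müller glia, 14 of lens, 6 of pigment epithelium, ciliary body and cornea, 3 of red cells and 1 of SC glia and vessels, where 1, 2, 2, 1, 0 and 0 had an unadjusted p under 0.05. The part of this change of cells in the result was not tested.

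**Figure D4:**
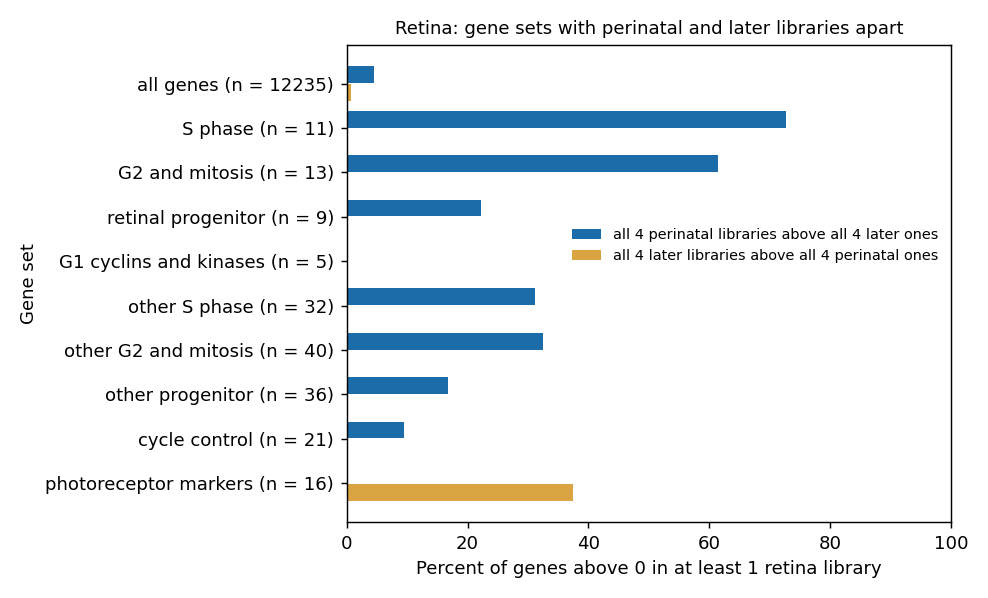
Percent of genes, by set, in which all 4 perinatal retina libraries were above all 4 later ones (blue) or the reverse (yellow); n is the number of genes of the set above 0 in a retina library. The S phase genes reach 72.7% and those of G2 and mitosis 61.5%, beside 4.55% of all genes, and the yellow bar of photoreceptor markers reaches 37.5%, beside 0.703% of all genes.

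The SC libraries show whether the same mRNAs were pulled down where retinal axons end, and how much of that was background. There 6 of the 39 genes (Mcm3, Ccnb1, Cdc20, Birc5, Rax and Atoh7) were listed at 0 in all 16 libraries, and 11 more were above 0 in a single library. Of these 11, Plk1 and Lhx2 read 17.2 and 5.65 FPKM in E17.5 Cre-negative replicate 1, and the other 9 at most 0.607. That library was shallow, with an estimated 478000 fragments, so that 3 fragments on a transcript of 2 kb amount to 3.14 FPKM. Sfrp2 was above 0 in all 16 SC libraries, from 11.1 to 693 FPKM with a median of 93.9, and its highest value was in the adult Cre-negative replicate 2, where no other gene of the list was above 0. Ccnd2 was above 0 in 15 libraries and Cdk2 and Rrm2 in 13 each. E17.5 Cre-positive replicate 2, with an estimated 11700000 fragments, held 21 of the 39 genes, the most of any SC library, but only 4 of them at 1 FPKM or more.

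Perinatal retina was compared with perinatal SC in a fit of all 24 libraries, in which 28 of the 39 genes were tested. Of these, Tk1, Ccnb2, Birc5, Fgf15 and Atoh7 reached 1 FPKM in perinatal retina alone. They passed the filter only through the group where they were high, so their own p-values and the counts that hold them are descriptions. Against Cre-positive SC, 10 of the 28 were higher in retina, against 3.09% of 7193 genes, and 1 was lower, against 17.4%. The 10 were the S phase genes Mcm5 and Tk1, the mitotic genes Ccnb2, Top2a and Birc5, and the progenitor genes Pax6, Fgf15, Sfrp2, Rax and Atoh7, and the 1 was Mcm6. Against Cre-negative SC, 10 of the 28 were higher, against 2.5% of all genes: Mcm5, Pcna, Tk1, Ccnb2, Birc5, Pax6, Fgf15, Sfrp2, Rax and Atoh7. The comparisons share the retina libraries. The smallest limma adjusted p-values were those of Ccnb2 and Tk1 (both 0.000123 against Cre-negative SC and 4.28e-05 against Cre-positive SC). Both genes were among those the filter chose in this way and were listed at 0 in all 8 Cre-negative libraries. Their SE was 0.31 and 0.29 here, where groups at 0 add no spread, beside 0.99 and 0.96 in the fit of retina alone. The call of Sfrp2 held under 5 of 14 alternatives against Cre-positive and 6 of 14 against Cre-negative SC. Against Cre-positive SC the call of Mcm6 held under 9 of 14 and was lost with a pseudocount of 0.1 (limma adjusted p = 0.244). Against Cre-negative SC that of Mcm5 held under 9 of 14 and that of Rax under 10 of 14. Eye and SC libraries also differed in the number of PCR cycles, and that cannot be told apart from the tissue.

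At P0.5, several cell cycle mRNAs were at higher levels in Cre-positive than in Cre-negative SC, and so were most genes. Ccnd1 read 153 and 164 FPKM in Cre-positive and 0 and 0.0232 in Cre-negative SC. Mcm6 read 16.1 and 19.0, Pcna 21.7 and 8.06, and Cdk4 48.3 and 25.1, all 3 listed at 0 in both Cre-negative libraries. Bub3 read 20.8 and 3.69 against 0.0788 and 0. Rrm2 read 48.0 and 105 against 1.11 and 19.4, and Ccnd2 119 and 50.2 against 32.1 and 27.1. Top2a had the reverse order, listed at 0 in both Cre-positive and at 12.9 and 4.78 in the Cre-negative libraries. So did Hes5, at 0.133 and 0.797 against 0.810 and 14.2. Of the 13 genes of the list above 0 at P0.5, both Cre-positive libraries were above both Cre-negative ones in 8 and below in 2, where 62.2% and 12.8% of 5500 genes did so.

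By limma over the 16 SC libraries, which tested 15 of the 39 genes, 4 were higher in Cre-positive SC at P0.5 (Ccnd1, Mcm6, Pcna and Bub3; adjusted p = 0.0144, 9.22e-06, 4.45e-05 and 0.00295) and 1, Top2a, lower (0.000196). Of all 5983 genes tested 28.1% were higher, a share near that of the 4 in 15, and 4.35% were lower. The spread of a gene is taken over all groups of the fit, and groups with both libraries at 0 make it small. Pcna and Mcm6 were above 0 in 2 and 4 of the 16 libraries (SE 0.43 and 0.34, beside 1.94 for Ccnd1). Leaving out either Cre-positive library brought the 4 calls to 0: Mcm6, Pcna and Bub3 then no longer passed the filter, and Ccnd1 had a limma adjusted p of 0.0999 without replicate 1 and 0.0772 without replicate 2. Leaving out either Cre-negative library took Top2a below the filter and Ccnd1 to an adjusted p of 0.0755 and 0.0716, so that 3 higher calls were left. Without Cre-negative replicate 1, Hes5 was lower in its place (limma adjusted p = 0.00664). The 2 Cre-positive libraries had 4620 and 4923 genes above 0 and the Cre-negative ones 2162 and 2546, and the median difference over all genes was 0.78 on the log2 scale, beside 1.36 over the 15. Cdk4 and Rrm2 did not pass, at limma adjusted p-values of 0.181 and 0.0939, but did with the replicate number as a block (0.0316 and 0.0196).

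**Figure D5:**
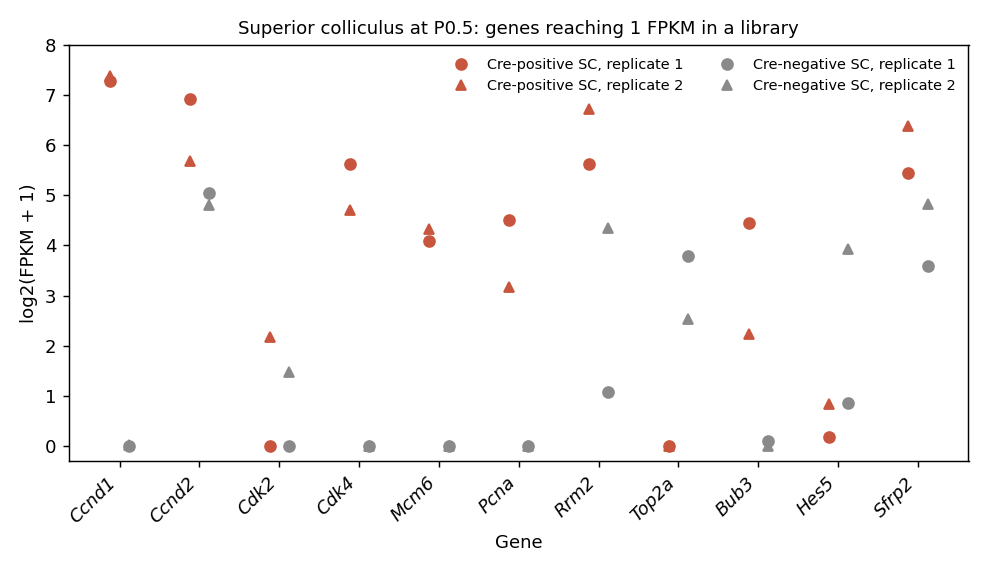
Level at P0.5 of the 11 genes of the list that reached 1 FPKM in an SC library of that stage, as log2(FPKM + 1), in the 2 Cre-positive (red) and 2 Cre-negative (grey) libraries. Ccnd1, Cdk4, Mcm6, Pcna and Bub3 have both red points above 2 and both grey points near 0, and Top2a has the reverse.

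At the other stages none of the 15 genes passed in either direction by limma, and none had an unadjusted p under 0.05. Of all genes tested, 0.468% were higher with Cre and 1.1% lower at E17.5, 0% and 0% at P7.5, and 0.0836% and 0.0669% in the adult. At E17.5 the replicates of a group lay far apart: Cdk4 read 126 and 0.133 in Cre-positive and 124 and 0.0596 in Cre-negative SC, and Ccnd1 110 and 8.79 against 17.7 and 6.69. In both groups replicate 1 was the higher one for both genes. In the adult, Ccnd1 read 18.9 and 0 in Cre-positive and 7.90 and 0 in Cre-negative SC.

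Cre-negative SC was compared by age in the same way. Perinatal exceeded later Cre-negative SC in 1 of the 15 genes tested, Top2a (log2 difference 1.52, SE 0.31, limma adjusted p = 0.0171), against 4.78% of all genes. Its level there came from P0.5, at 12.9 and 4.78 FPKM, with at most 0.354 in the other 6 libraries, and leaving out either P0.5 library, P7.5 replicate 2 or adult replicate 2 brought the count to 0. The test of the difference between tissues, the perinatal excess in retina minus that in Cre-negative SC, passed in 4 of 28 genes, against 0.306% of all genes: Ccnb2, Tk1, Birc5 and Atoh7 (limma adjusted p = 0.00726, 0.00811, 0.0325 and 0.0343). Each of the 4 was listed at 0 in all 8 Cre-negative SC libraries and reached 1 FPKM in perinatal retina alone. The filter had thus chosen them for the group where they were high, and nothing is read from their count. Their differences were those of retina alone (limma adjusted p = 0.338 to 0.674 there), so their p-values are not read either. An unadjusted p under 0.05 was reached by 10 of the 28 and by 197 of all 7193 genes in this direction. Sfrp2, with the widest difference (6.33 on the log2 scale, SE 1.58), had an adjusted p of 0.055. Leaving out P0.5 Cre-negative replicate 1 brought the 4 calls to 0, at adjusted p-values of 0.0711 to 0.171. The median difference of all genes was -0.25 in this comparison.

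The adult run-off libraries hold read counts and have no replicates, so no test is given. Run-off lets ribosomes finish their mRNA and leave it. The adult retina library without run-off had reads on 19 of the 39 genes. Among them were Ccnd1 (136), Pax6 (133), Ccnd2 (132), Rax (85), Bub3 (48) and Pcna (43). Of the 15 genes listed at 0 in every later FPKM library of retina, 4 had reads here: Pcna, Mcm2 (12), Ccna2 (7) and Plk1 (4). Of all genes so listed, 42.9% had a read. Ccnb2, Cdk1, Mki67, Birc5, Fgf15 and Atoh7 had 0 reads, as did Top2a and Tk1. A count of 0 allows up to 3 reads of 4686284, and this covers counting error only.

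After run-off, 18 of the 19 genes had fewer reads and 17 had none left, where 92.1% of all genes had fewer and 60.5% none, and the library as a whole had 315009 reads, 6.72% as many. Ccnd2 kept 14 of 132 reads. Sfrp2 was the exception, with 16 reads without and 59 with run-off. In adult Cre-positive SC, Mcm6 went from 434 reads to 1, Sfrp2 from 1129 to 81, Top2a from 126 to 0 and Cdk4 from 116 to 0, while Ccnd1 went from 1 to 36, Bub3 from 0 to 9 and Hes5 from 0 to 4. There 6 of the 10 genes with a read in either SC run-off library had fewer after run-off. Of all genes with such a read 84.9% did, and the library had 10.7% as many reads. Mcm6 and Top2a were at 0 and at most 0.144 in the 2 adult Cre-positive FPKM libraries, and neither retina run-off library had a read of either.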

How the data were processed

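Libraries were prepared from HA pulldowns of pooled tissue. The authors aligned reads to mm10 with TopHat2 2.0.12 and deposited FPKM values per gene from Cufflinks 2.2.1 for 24 libraries. For the 4 run-off libraries they deposited read counts per gene from HTSeq 0.6.1p1. Whether counting used strand is not given in the sources used here. Groups were taken from the labels, which do not say whether replicates came from separate litters, so p-values measure the spread between these libraries, which may be in part technical.

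FPKM values were tested as log2(FPKM + 1) with limma 3.58.1 in R 4.3.3 (trend and robust moderation, Benjamini-Hochberg adjustment over all genes tested, two-sided, threshold 0.05) after genes that did not reach 1 FPKM in 2 or more of the fitted libraries were dropped. Differences on this scale understate changes of low genes. Retina (8 libraries), SC (16) and all 24 libraries were fitted separately. In each fit a gene has a single spread for all groups, and groups listed at 0 in both libraries lower it. The script was tested on simulated data, with noise drawn independently for each gene and library. The simulation had no uneven libraries and no groups set to 0, so it does not test the fits in those cases. Depth was estimated from the spacing of low FPKM values. The spacing was near whole fragments, within 0.15, for 53.8% to 72.4% of the values used in retina, so the estimate is rough. Run-off counts have 1 library per group and no test. In 4 genes, none of them on the list, 12 entries read HIDATA and 1 was blank, and these were treated as missing. Gene positions are those of GENCODE on GRCm38, and promoters those of RefSeq on GRCm38.p6, first window listed per gene. Every gene of the list was described, and of each other list the count that passed and up to 4 genes with the smallest p were named, except 1 gene that is not reported here. The 39 genes, the other lists and the tests were chosen with earlier results of these data known. Replicate numbers recur across groups, but nothing says that a number marks a shared litter. The correlation of replicate differences between the 3 sources (SC with and without Cre, retina) was 0.117 to 0.465 at E17.5, P0.5 and P7.5 but -0.207 to 0.0208 in the adult. It did not exceed 0.1 at every stage, so the fits have no block, and shared preparation at the other stages was not tested.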

Additional observations from a re-analysis of the deposited data

Results flagged for a closer look

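In all 24 libraries, 4 genes of the list passed limma's test of the perinatal excess in retina minus that in Cre-negative SC. These were Ccnb2 (limma adjusted p = 0.00726), Tk1 (0.00811), Birc5 (0.0325) and Atoh7 (0.0343). All 4 reached 1 FPKM in perinatal retina alone and so passed the filter only through the group where they were high. They were listed at 0 in the 8 Cre-negative SC libraries, and Ccnb2, Birc5 and Atoh7 in the 4 later retina libraries as well. In perinatal retina they were lowest in a P0.5 library: 1.66 FPKM for Ccnb2, 1.01 for Tk1, 0.788 for Birc5 and 0 for Atoh7, which was at 0 in both. The call of Ccnb2 and that of Tk1 held under 21 of 22 alternatives each. That of Birc5 held under 14 of 22 and that of Atoh7 under 8 of the 19 in which it was still tested. With Cre-negative SC at 0, the 4 log2 differences (2.565, 2.339, 1.365 and 0.792) are those of retina alone. In the fit of retina alone they did not pass (limma adjusted p = 0.338, 0.427, 0.512 and 0.674). Standard errors were smaller in the fit of 24 libraries (0.44 against 0.99 for Ccnb2), where groups at 0 add no spread. So the 4 calls add nothing to the retina comparison.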

How the results depend on the processing

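Of the counts of genes of the list, 58 of 61 stayed within 1.5 times under other settings. These were another pseudocount (0.1), no filter, median-ratio scaling or the replicate block. With 1 library left out, 82 of 100 did. Many of these counts were 0 before any setting was changed, among them every count of Cre-positive against Cre-negative SC outside P0.5. A count that stayed at 0 is included as within 1.5 times. The shares therefore do not measure how well the counts above 0 held. Of 429 values of single called genes, taken only where the gene was still tested, 360 kept the call and 0 turned direction. A gene that left the filter is not counted there as a lost call. Mcm6, Pcna, Bub3 and Top2a at P0.5 left it when a library of their high group was left out. The count higher in perinatal than later retina, 1, fell to 0 with no filter and with median-ratio scaling, where 0 and 4 of all genes passed in place of 30, and, with libraries chosen after seeing the data, to 0 without P7.5 and adult replicate 1 (3 of all genes higher, 232 lower) and to 0 without the libraries with Actb at 0 (3 of all genes). It was 2 with the replicate block (Rrm2 added) and between 1 and 2 with 1 library left out (2 without P7.5 replicate 1 or adult replicate 2). The count of genes apart by age in every retina library was 18 of 38, against 4.55% of all genes. Among genes reaching 1 FPKM in 2 retina libraries it was 10 of 23 (43.5%), against 5.34%. Without the libraries with Actb at 0 it was 29 of 38 (76.3%), and in those alone 28 (73.7%). The share of all genes rose as well in these 2 subsets, to 16.4% and 30.9%. With 1 library left out the count was 18 to 25, against 4.68% to 9.21% of all genes.

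With 1 library left out, the counts in Cre-positive against Cre-negative SC ran from 0 to 1 (lower at E17.5; 1 without Cre-negative replicate 2), 0 to 3 (higher at P0.5), 0 to 1 (lower at P0.5; 0 without Cre-negative replicate 2, Hes5 in place of Top2a without replicate 1) and 0 to 2 (lower at P7.5; 2 without Cre-negative replicate 1). For perinatal retina against Cre-negative SC they ran from 6 (without P0.5 Cre-negative replicate 1) to 11, for Cre-negative SC by age from 0 to 2 (2 without E17.5 replicate 2), and for the difference between tissues from 0 to 6, with 2 without P0.5, P7.5 or adult Cre-negative replicate 2 or P7.5 retina replicate 2. The replicate block gave 6 in place of 4 higher at P0.5 (Cdk4 and Rrm2 added), and for all genes 4 and 15 in place of 28 and 66 at E17.5. The causes were not tested, other than fewer libraries and genes that left the filter. A group left with 1 library was assumed to vary like the others. The share of all genes is not given beside these counts of genes of the list. A change in a count therefore cannot be told apart from a change over all genes. Depth limits the shallow SC libraries, and genes that every cell uses were listed at 0 in libraries of ample depth.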
